A study of Mus musculus with 9 samples.

Results

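The cytosolic ribosome of mouse C1498 cells was examined through the genes that encode its proteins. Members were the genes whose symbol begins with Rpl or Rps and a digit, together with Rplp0, Rplp1 and Rpsa, leaving out S6 kinases and pseudogene names. The rule found 68 genes among the 19505 named genes of the array, each read by 1 probe set, a group of probes summarised as 1 value. Of these, 55 encode canonical subunits, 33 of the large (60S) and 22 of the small (40S) subunit. The other 13 are paralogs or retrocopies, such as Rpl22l1, Rpl39l and Rps27l, and Rps19bp1, a protein that binds Rps19. The rule used names and no measured value. Rplp2, Rpl10 and Rps27 were not analysed here.

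The C1498 line comes from a myeloid leukaemia of the mouse. All groups received a lentivirus that carried green fluorescent protein (GFP), and GFP+ cells were isolated 2 weeks after infection for RNA. The lentivirus of shZeb1_C (arrays 10, 11 and 12) carried hairpin sequence C against Zeb1, that of shZeb1_D (arrays 13, 14 and 15) hairpin sequence D, and that of Scr (arrays 7, 8 and 9) a negative control construct. Separate infections are not stated for the 3 arrays in a group, so the errors and p-values describe the spread between these arrays, which may be technical. The hairpins were tested in 1 cell line.

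A ribosome holds a small subunit, which reads the mRNA, and a large subunit, which joins amino acids. Each subunit needs its proteins in matched amounts, and cells make them in very large quantity. Most of their mRNAs begin with a C followed by a run of pyrimidines, the terminal oligopyrimidine or TOP tract, through which mTOR and the RNA-binding protein Larp1 control their translation. This control acts on ribosome loading and need not show in an mRNA level. In humans, loss of 1 copy of genes such as RPS19, RPL5, RPL11 or RPS26 causes Diamond-Blackfan anaemia, a failure of red cell production, so blood cells are known for sensitivity to the dose of these proteins. Zeb1 is a zinc-finger transcription factor that binds E-box sequences and mostly represses.

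The start of transcription carries the feature for which these genes are best known. RefSeq promoters (GRCm38.p6) matched 55 of the 68 genes. A pyrimidine run was counted as 5 or more C or T letters that begin with C, on the coding strand, within 15 bases either side of the annotated start. It was present in 32 of 55 members (58.2%), in 36.8% of 15636 other tested genes and in 36.5% of all 27025 promoters read. Windows of 30 bases follow for members that the results below turn on or that carry long runs, 5′ to 3′ on the gene's strand, with the longest run in capitals and the annotated start at the centre.
Rpl7a, chr2:26910792-26910821, plus strand: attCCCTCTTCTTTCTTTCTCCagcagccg
Rps6, chr4:86857353-86857382, minus strand: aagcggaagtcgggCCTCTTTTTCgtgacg
Rps18, chr17:33955651-33955680, minus strand: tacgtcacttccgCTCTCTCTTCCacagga
Rps27l, chr9:66946071-66946100, plus strand: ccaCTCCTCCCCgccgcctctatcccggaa
Rpl4, chr9:64173372-64173401, plus strand: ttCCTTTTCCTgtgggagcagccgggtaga
Rpl22l1, chr3:28805493-28805522, plus strand: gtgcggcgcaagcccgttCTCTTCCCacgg
Rpl39, chrX:37085208-37085237, minus strand: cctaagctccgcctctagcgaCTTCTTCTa
Rps26, chr10:128626492-128626521, minus strand: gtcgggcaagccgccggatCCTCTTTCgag
Rps25, chr9:44407699-44407728, plus strand: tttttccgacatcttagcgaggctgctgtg
Rps19, chr7:24884577-24884606, plus strand: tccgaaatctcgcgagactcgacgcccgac
Rpl7a held a run of 19 bases, Rps18 of 11 and Rps6 of 10. Rps25 and Rps19 held none in this window, which depends on where RefSeq places the start. A run counted here need not begin at the start, so it was not shown to be a TOP tract. Counted from the annotated start, the run began at −13 in Rpl4 and −12 in Rps27l. It began at 5 in Rps26 and 7 in Rpl39.

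Other promoter motifs were counted over 250 bases before to 50 after the start. The letters CCGGAAG, the core of ETS-family sites, occurred on either strand in 21 of 55 members (38.2%), in 12.1% of other tested genes and in 35.8% of 67 mitochondrial ribosomal protein genes. CAGGTG, an E-box of the kind Zeb1 binds, occurred in 9 of 55 members (16.4%) and in 19.3% of other tested genes. TATAAA occurred in 6 members (10.9%) and in 13.2% of other tested genes. Rps21, the canonical member with the lowest fold change in shZeb1_C, is shown from 100 bases before its start to 15 after it, with both CCGGAAG matches and the pyrimidine run in capitals.
Rps21, chr2:180257279-180257393, plus strand: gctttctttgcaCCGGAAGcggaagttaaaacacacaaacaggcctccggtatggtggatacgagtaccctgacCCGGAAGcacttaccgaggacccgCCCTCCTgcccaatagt
This stretch held no CAGGTG. A match is a match of letters and was not measured as a bound site.

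The targeted gene was read first. Zeb1 had log2 signals of 10.41, 10.01 and 10.34 in shZeb1_C and 9.56, 9.26 and 9.40 in shZeb1_D, against 10.52, 10.29 and 10.56 in Scr. The shZeb1_D arrays lay below all Scr arrays, at 48.3% of the Scr level (log2 fold change −1.05 ± 0.16 SE, limma adjusted p = 0.0263). In shZeb1_C the level was 86.9% of Scr and no difference was called (−0.20 ± 0.16, limma adjusted p = 0.895), so a direction for hairpin C rests on its label. The cell type label was also read against markers. The pan-leukocyte gene Ptprc averaged 14.88, but 7 of 10 myeloid markers, among them Spi1 at 5.46 and Csf1r at 5.38, lay below the median of all tested probe sets, 7.10. The T cell receptor genes Cd3g and Cd3e averaged 15.51 and 14.46, but the 6 T or NK cell markers had a median of 7.11 and a lowest of 4.71, and 3 of the 6 lay above the array median. Of all markers read, Fcgr3, an Fc receptor of myeloid and NK cells, was called lower in shZeb1_C (means 7.78 in shZeb1_C and 11.87 in Scr, limma adjusted p = 5.6e-05), and Nkg7, a granule protein of NK and T cells, was called higher there (10.52 in shZeb1_C and 4.58 in Scr, limma adjusted p = 0.0109). None of the 10 myeloid, 6 T or NK cell, 2 B cell and 3 stroma markers was called in shZeb1_D. Values here are log2 signals or differences of them, and signals of different probe sets are not amounts that can be compared between genes.

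The ribosomal protein probe sets were among the brightest on the array. Their median signal was 16.31 and they ranged from 5.41 to 17.19. Of the 143 probe sets above 16, 41 were members, and 42 members were among the 196 above the 99th percentile of 15.79. The 4 brightest were Rpl41, the smallest ribosomal protein, at 17.19, Rpl31 at 17.13, Rps18 at 17.07 and Rpl7a at 17.01. All 55 canonical subunits averaged at least 13.01, the value of Rplp0, the base of the stalk that recruits elongation factors. The 3 members below the array median were paralogs with restricted roles: Rpl39l at 5.41 and Rpl10l at 6.74, known from the testis, and Rpl3l at 5.93, known from striated muscle. Near the top of an array's range, true differences can be compressed, and the data hold no measure of this.

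No ribosomal protein gene passed the test with either hairpin. With limma over all 19572 named probe sets and Benjamini-Hochberg adjustment, 0 of 68 members passed an adjusted p of 0.05 in shZeb1_C against Scr, where 0.945% of all probe sets were called. The same held in shZeb1_D against Scr (0 of 68, background 0.843%), in the mean of both hairpins against Scr (0 of 68, background 0.828%) and in shZeb1_D against shZeb1_C (0 of 68, background 0.848%). At an unadjusted p under 0.05 there were 2 members in shZeb1_C, Rps21 and Rps4l (2.94%, background 8.77%), and 0 in shZeb1_D (background 13.6%). There were 2 for the mean of the hairpins, again Rps21 and Rps4l (background 11.0%), and 1 between the hairpins, Rps4l (background 11.7%). The comparisons with Scr share its 3 arrays. In these bulk samples, fewer cells of a type and less RNA per cell cannot be told apart, and RMA sets the arrays to a common distribution, so a shift shared by all mRNAs would not show.

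The median member moved little. The median log2 fold change was −0.03 in shZeb1_C, with 43 members below 0 and 25 above, beside 0.00 over all tested probe sets. In shZeb1_D it was 0.017, with 33 below and 35 above, beside 0.043 over all. Between shZeb1_D and shZeb1_C it was 0.03, beside 0.04 over all. Most members, 65 of 68, lay above the array median signal. Over all probe sets above it, the medians were −0.033 in shZeb1_C, −0.05 in shZeb1_D and −0.023 between shZeb1_D and shZeb1_C. Canonical subunits had medians of −0.03 (60S) and −0.09 (40S) in shZeb1_C and −0.01 (60S) and −0.05 (40S) in shZeb1_D. No direction is given for the family, since the median crossed 0 when Scr array 8 was left out (0.033 in shZeb1_C) and when array medians were subtracted (−0.07 in shZeb1_D).

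The intervals give what size of change these arrays could still hold. In shZeb1_C the 95% limma interval lay within ±0.5 for 42 of 68 members (61.8%) and for 25.2% of all probe sets. In shZeb1_D it did so for 41 members (60.3%), against 20.7% of all, and between shZeb1_D and shZeb1_C for 44 (64.7%), against 21.0%. A change of 1 log2 unit lay outside the interval of 64, 63 and 62 members in these comparisons. No member's estimate reached 1, and the estimates ran from −0.46 to 0.93 in shZeb1_C and from −0.40 to 0.65 in shZeb1_D. Estimates beyond 0.25 in size were given by 4 members in shZeb1_C (5.88%), against 31.8% of all probe sets, and by 7 in shZeb1_D (10.3%), against 43.0%.

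**Figure D1:**
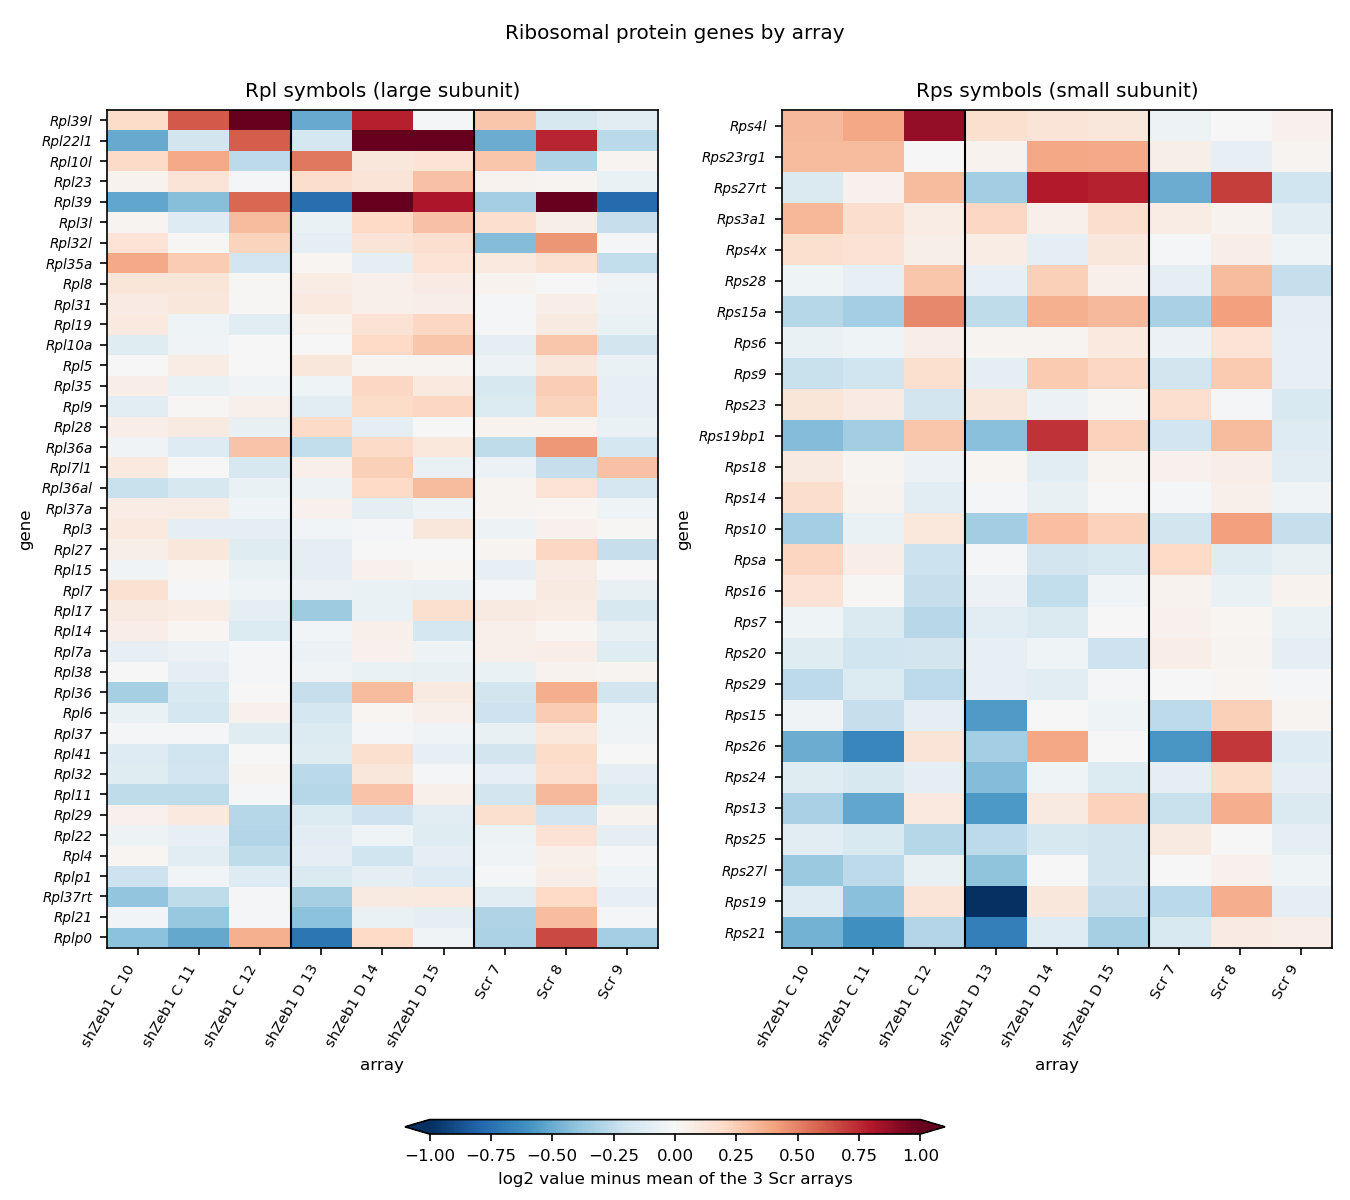
Each row is a ribosomal protein gene and each column an array, coloured by its log2 value minus the mean of the 3 Scr arrays, with Rpl symbols left and Rps symbols right. Most rows stay near 0 in all 9 arrays, while Rpl39, Rpl22l1 and Rps27rt differ between arrays of the same group.

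The brightest probe sets varied less between replicate arrays, members or not. Above a mean signal of 16, the residual SD within groups had a median of 0.092 over the 41 members and 0.129 over the 102 other probe sets. Between 14 and 16 it was 0.245 over 17 members and 0.256 over 890 others. The size of the fold changes followed the same order: above 16 the median size in shZeb1_C was 0.053 for members and 0.075 for others, and in shZeb1_D 0.067 and 0.100. The narrow intervals of the family therefore stand beside its high signals, and the part of signal in them was not tested. The narrowest spread was that of Rpl8 (SD 0.043), and the widest that of Rpl39 (SD 0.878), a small protein of the exit tunnel.

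**Figure D2:**
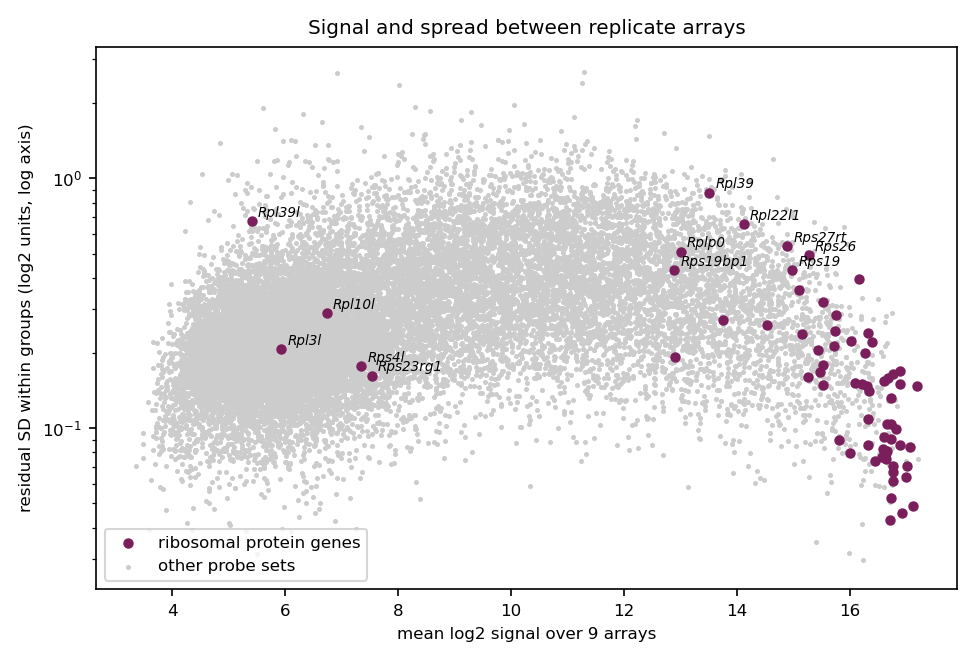
The horizontal axis is the mean log2 signal over the 9 arrays and the vertical axis, on a log scale, the residual SD within groups, for ribosomal protein genes (large points) and other probe sets (small points). Members above 16 have a median SD of 0.092, against 0.129 in other probe sets there.

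Among the small-subunit proteins, Rps21 had the lowest fold change in shZeb1_C. Rps21 is one of the smaller proteins of the 40S subunit. It had signals of 16.08, 15.94 and 16.26 in shZeb1_C and 15.87, 16.42 and 16.22 in shZeb1_D, against 16.40, 16.63 and 16.62 in Scr. All shZeb1_C arrays lay below all Scr arrays, while the shZeb1_D arrays overlapped them. The difference was −0.46 ± 0.18 in shZeb1_C (95% interval −0.86 to −0.06, limma adjusted p = 0.450), or 72.9% of Scr. In shZeb1_D it was −0.38 ± 0.18 (−0.78 to 0.02, limma adjusted p = 0.392), or 76.8% of Scr, and it was −0.23 without array 13. Neither passed the test. An exact permutation test of 3 arrays against 3 gave p = 0.1 for shZeb1_C, two-sided, the smallest this design allows.

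Other small-subunit genes also had shZeb1_C arrays wholly below Scr. In all, 5 members did so (7.35%, background 6.74%) and 1, Rps4l, lay wholly above (1.47%, background 7.5%). The share below was near the background over the family. By subunit it was 5 of 27 members with Rps symbols (18.5%) and 0 of 41 with Rpl symbols. In shZeb1_D the same counts were 1 of 27 (3.7%) and 2 of 41 (4.88%), beside a background of 6.65%. A difference between the subunits was not tested. Rps29, a zinc-binding protein of the 40S head, had 16.57, 16.70 and 16.57 in shZeb1_C and 16.75, 16.73 and 16.82 in shZeb1_D, against 16.84, 16.85 and 16.81 in Scr. Its tight arrays separated shZeb1_C from both other groups, at −0.22 ± 0.12 against Scr (limma adjusted p = 0.738) and 0.15 for shZeb1_D minus shZeb1_C (limma adjusted p = 0.676). Rps25, which is needed for initiation at several internal ribosome entry sites, had 16.69, 16.64 and 16.51 in shZeb1_C and 16.53, 16.63 and 16.61 in shZeb1_D, against 16.88, 16.80 and 16.70 in Scr. Both hairpin groups lay below every Scr array, at −0.18 ± 0.13 in shZeb1_C (limma adjusted p = 0.857) and −0.20 ± 0.13 in shZeb1_D (limma adjusted p = 0.525). Rps27l, a paralog of Rps27 that p53 induces in human and mouse cells, had 16.07, 16.18 and 16.37 in shZeb1_C, all below the Scr arrays at 16.44, 16.49 and 16.40. Its shZeb1_D arrays, at 16.04, 16.44 and 16.26, overlapped Scr. Rps20 was the last of the 5, at −0.17 (limma adjusted p = 0.885).

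In shZeb1_D, 3 members lay wholly below Scr (Rpl4, Rplp1 and Rps25; 4.41%, background 6.65%) and 3 wholly above (Rpl23, Rpl8 and Rps4l; 4.41%, background 10.3%). Rpl4, whose long loop lines the exit tunnel, had 16.59, 16.49 and 16.60 in shZeb1_D, against 16.65, 16.74 and 16.67 in Scr, a difference of −0.13. Rplp1, an acidic protein of the stalk, had 16.93, 16.99 and 16.95, against 17.06, 17.14 and 17.03, a difference of −0.12. Both are separations of about 0.1 log2 units between tight arrays, and limma gave adjusted p = 0.717 for each. Rpl23 stood at 0.20 (limma adjusted p = 0.526) and Rpl8 at 0.07 (limma adjusted p = 0.838). Between the hairpins, Rpl36al and Rps29 were wholly higher in shZeb1_D than in shZeb1_C (2.94%, background 8.99%), and Rpl7 and Rps4l wholly lower (2.94%, background 6.26%).

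**Figure D3:**
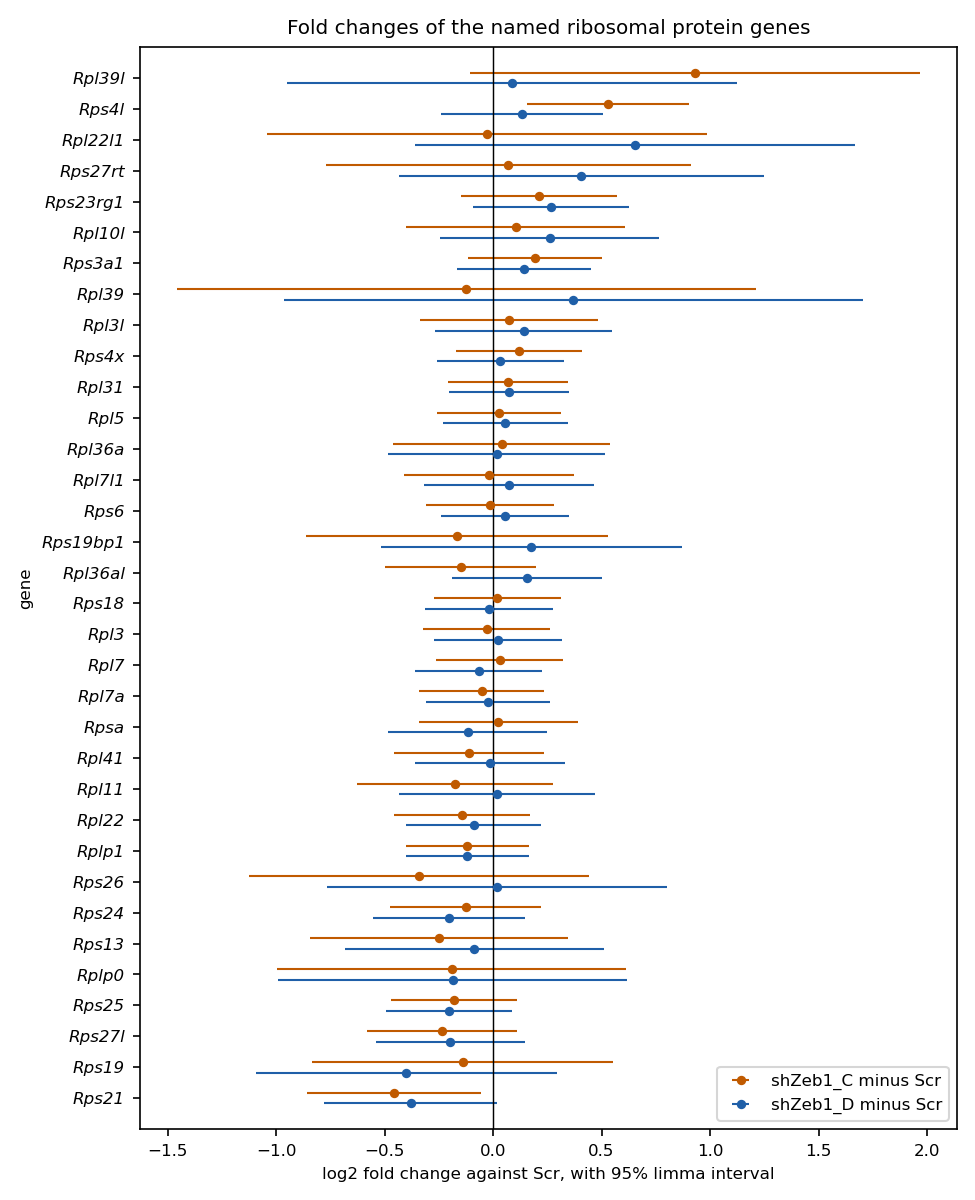
Points are log2 fold changes of 34 named members against Scr for shZeb1_C and shZeb1_D, and bars are 95% limma intervals. Rps21 lies at −0.46 in shZeb1_C and −0.38 in shZeb1_D, and only the shZeb1_C intervals of Rps21 and Rps4l leave out 0 among the members plotted.

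The canonical large-subunit genes spanned −0.19 to 0.15 in shZeb1_C and −0.19 to 0.37 in shZeb1_D. The lowest in shZeb1_C was Rplp0 and the highest Rpl35a, while in shZeb1_D the lowest was Rpl21 and the highest Rpl39. The canonical small-subunit genes spanned −0.46 to 0.19 in shZeb1_C and −0.40 to 0.14 in shZeb1_D. At the upper end of the small subunit in both stood Rps3a1, a protein near the mRNA exit, with 16.88, 16.72 and 16.62 in shZeb1_C and 16.75, 16.60 and 16.72 in shZeb1_D, against 16.62, 16.58 and 16.44 in Scr. Its arrays touched or overlapped, and its intervals ran from −0.12 to 0.50 in shZeb1_C and from −0.17 to 0.45 in shZeb1_D. Rps14, whose human counterpart lies in the segment lost in 5q- syndrome, a myelodysplasia, had 16.91, 16.77 and 16.62 in shZeb1_C and 16.72, 16.66 and 16.73 in shZeb1_D, against 16.72, 16.79 and 16.70 in Scr. Its groups overlapped, and its intervals ran from −0.27 to 0.33 in shZeb1_C and from −0.33 to 0.27 in shZeb1_D.

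Proteins with roles outside the ribosome showed no change that passed the test. Rps6, the 40S protein phosphorylated by S6 kinase, had 16.80, 16.83 and 16.94 in shZeb1_C and 16.90, 16.90 and 16.97 in shZeb1_D, against 16.81, 17.01 and 16.79 in Scr. The groups overlapped, and the differences were −0.01 in shZeb1_C (95% interval −0.31 to 0.28) and 0.05 in shZeb1_D (−0.24 to 0.35). Rpl5 and Rpl11 travel with the small ribosomal RNA of the large subunit and bind Mdm2 when assembly fails, which stabilises p53. Rpl5 had 16.73, 16.81 and 16.74 in shZeb1_C and 16.85, 16.76 and 16.76 in shZeb1_D, against 16.68, 16.85 and 16.67 in Scr. Rpl11 had 15.53, 15.53 and 15.77 in shZeb1_C and 15.50, 16.07 and 15.84 in shZeb1_D, against 15.60, 16.11 and 15.65 in Scr. In both genes the groups overlapped, with Rpl5 at 0.03 in shZeb1_C and 0.06 in shZeb1_D, and Rpl11 at −0.18 and 0.02. Rpsa, a 40S protein also known as the laminin receptor, stood at 0.02 in shZeb1_C and −0.12 in shZeb1_D.

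The genes tied to Diamond-Blackfan anaemia in humans did not pass the test either, and some were measured with wide error. Rps19, whose human gene is the one most often mutated there, had 15.03, 14.74 and 15.29 in shZeb1_C and 14.08, 15.27 and 14.93 in shZeb1_D, against 14.89, 15.52 and 15.07 in Scr. Its lowest value in the study was that of shZeb1_D array 13, and the groups overlapped. It stood at −0.40 ± 0.31 in shZeb1_D (95% interval −1.09 to 0.29, limma adjusted p = 0.604), but at −0.06 without array 13, and at −0.14 in shZeb1_C. Rps26 had 14.88, 14.73 and 15.51 in shZeb1_C and 15.04, 15.77 and 15.38 in shZeb1_D, against 14.80, 16.09 and 15.25 in Scr. The Scr arrays of Rps26 alone spanned more than the hairpin groups, and its difference was −0.34 in shZeb1_C (−1.12 to 0.44), or 0.015 without Scr array 8, and 0.02 in shZeb1_D. Rps24 stood at −0.13 in shZeb1_C and −0.20 in shZeb1_D, and Rpl35a at 0.15 and 0.02.

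Paralogs and retrocopies gave the highest estimates, and several were dim. Rps4l, a copy of Rps4x, had 7.45, 7.51 and 8.00 in shZeb1_C and 7.28, 7.25 and 7.24 in shZeb1_D, against 7.07, 7.13 and 7.17 in Scr. Its groups did not overlap in any pair, but all values lay within 1 log2 unit of the array median of 7.10. It stood at 0.53 ± 0.17 in shZeb1_C (95% interval 0.16 to 0.90, limma adjusted p = 0.279) and at 0.13 in shZeb1_D (limma adjusted p = 0.767). For shZeb1_D minus shZeb1_C the value of −0.40 had a 95% interval of −0.77 to −0.02 and was not called (limma adjusted p = 0.395). Without array 12 it was −0.22, and the value in shZeb1_C against Scr was 0.36. Its bright partner Rps4x stood at 0.12 in shZeb1_C and 0.03 in shZeb1_D. Rpl39l had 5.26, 5.69 and 7.06 in shZeb1_C and 4.57, 5.85 and 5.06 in shZeb1_D, against 5.35, 4.91 and 4.96 in Scr. Its estimate of 0.93 ± 0.46 in shZeb1_C (limma adjusted p = 0.658) rested on array 12 and was 0.40 without it.

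Rpl22l1 can replace Rpl22, an RNA-binding protein of the large subunit that is lost in some leukaemias. Rpl22l1 had 13.41, 13.73 and 14.52 in shZeb1_C and 13.74, 14.94 and 15.03 in shZeb1_D, against 13.42, 14.68 and 13.65 in Scr. The shZeb1_D arrays 14 and 15 were the highest of the study, and the groups overlapped. The difference was 0.65 ± 0.45 in shZeb1_D (95% interval −0.36 to 1.67, limma adjusted p = 0.559) and −0.03 in shZeb1_C. The shZeb1_D value was 1.07 without array 13, 1.04 without Scr array 8 and 0.42 without array 15, so single arrays moved it widely. Rpl22 stood at −0.09 in shZeb1_D and −0.14 in shZeb1_C. Rpl36al had 15.30, 15.36 and 15.45 in shZeb1_C and 15.47, 15.72 and 15.84 in shZeb1_D, and its difference of 0.31 for shZeb1_D minus shZeb1_C was not called (limma adjusted p = 0.486). Rpl3l, Rpl10l and Rpl7l1, a factor of large-subunit assembly, lay between −0.02 and 0.26 in both comparisons with Scr. Ribosomal protein genes have many processed pseudogenes and near-identical copies, and how far probes are shared among them was not tested.

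The members that varied most within groups were high or low on the same arrays. The 10 with the widest spread within groups, chosen after their values were seen, were Rpl39, Rpl39l, Rpl22l1, Rps27rt, Rplp0, Rps26, Rps19, Rps19bp1, Rps15a and Rps13. Rpl39 had 12.91, 13.01 and 14.01 in shZeb1_C and 12.68, 14.49 and 14.24 in shZeb1_D, against 13.09, 14.55 and 12.66 in Scr. Rplp0 had 12.72, 12.62 and 13.49 in shZeb1_C and 12.41, 13.33 and 13.10 in shZeb1_D, against 12.82, 13.79 and 12.79 in Scr. Rps27rt, a retrocopy of Rps27, had 14.59, 14.78 and 15.05 in shZeb1_C and 14.39, 15.53 and 15.51 in shZeb1_D, against 14.24, 15.43 and 14.54 in Scr. In these genes 1 or 2 arrays of each group stood above the rest of it. All 10 lay above their group mean in shZeb1_C array 12 and in shZeb1_D array 14, 8 did in shZeb1_D array 15 and 9 in Scr array 8. Their median deviation was 0.50 in array 12, 0.39 in array 14, 0.18 in array 15 and 0.54 in array 8, and it was below 0 in the other 5 arrays, lowest at −0.59 in shZeb1_D array 13. The remaining members had smaller median deviations, −0.04 in array 12, 0.04 in array 14, 0.04 in array 15 and 0.07 in array 8. Of all 68 members, 34 lay above and 34 below their group mean in array 12, and 60 above and 8 below in array 8.

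**Figure D4:**
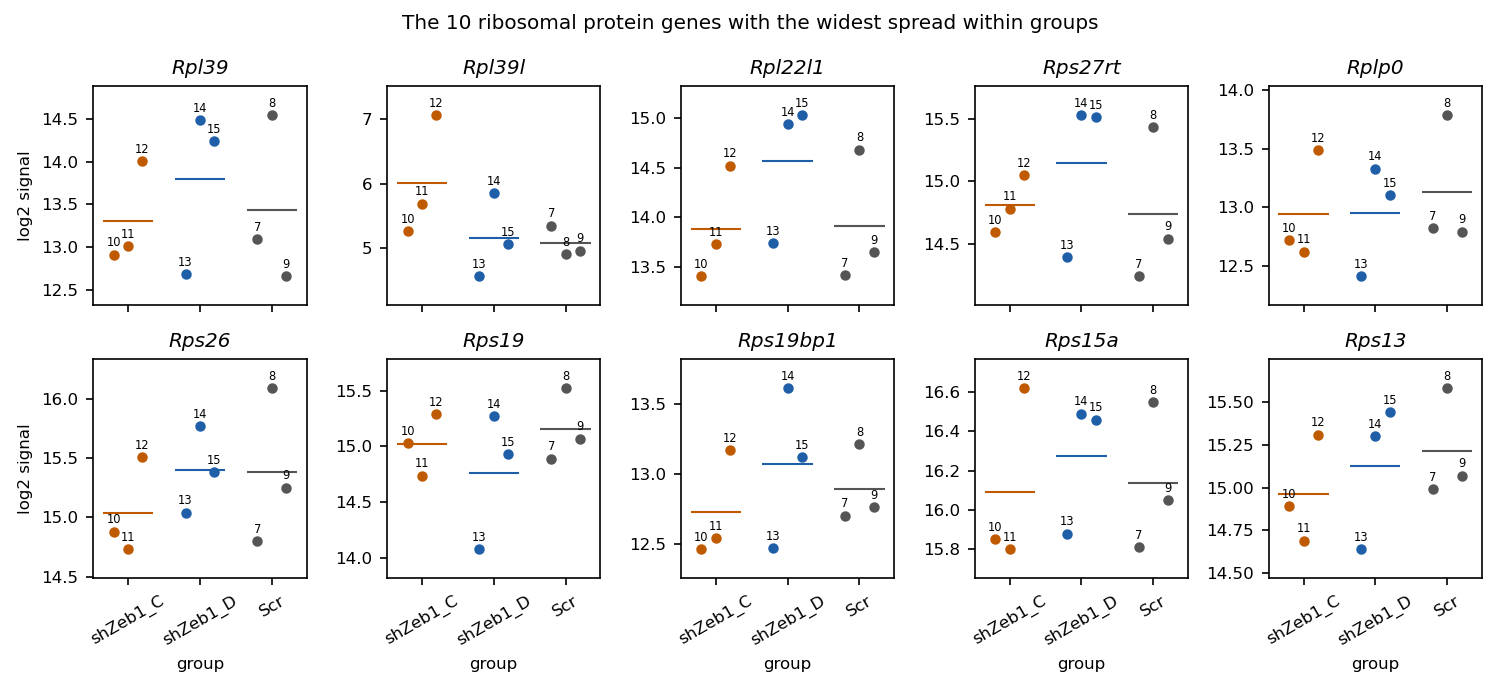
Each panel shows 1 of the 10 ribosomal protein genes with the widest spread within groups, with log2 signal per array as points marked by array number and group means as lines. Arrays 12, 14 and 8 lie high in their groups in nearly every panel.

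The same arrays shared a sign over the rest of the probe sets. The first component of the within-group residuals of the probe sets that were no members held 57.9% of the residual variance. Positive signs on it were those of shZeb1_C array 12 (0.52), shZeb1_D arrays 14 and 15 (0.31 and 0.19) and Scr array 8 (0.39). On the negative side, shZeb1_D array 13, at −0.49, lay further from 0 than all of these but array 12. Since residuals were taken from each group's own mean, each group had to hold both signs. With this split of the arrays as a covariate, a setting chosen after the data were seen, still 0 of 68 members were called. The lowest limma adjusted p were then 0.0938 for Rps4l in shZeb1_C, 0.0906 for Rplp0 in shZeb1_D and 0.0746 for Rps21 in the mean of the hairpins. What divides the arrays in this way was not tested.

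Some of the separated members lie beside genes that were also lower, and others do not. For each member, the 10 nearest tested genes on each side were read, members left out. Around Rps29 on chromosome 12, the median neighbour stood at −0.53 in shZeb1_C, with 18 of 20 lower, and at 0.01 in shZeb1_D. Rps29 itself stood at −0.22 in shZeb1_C and −0.07 in shZeb1_D, a smaller value than its neighbours in shZeb1_C. Around Rps25 on chromosome 9, the median neighbour stood at −0.46 in shZeb1_C and −0.57 in shZeb1_D. Around Rps27l, also on chromosome 9, it stood at −0.45 and −0.58, and around Rpl4 at −0.38 and −0.41. Beside Rplp1, on the same chromosome, it stood at −0.32 in shZeb1_C and −0.18 in shZeb1_D. For Rps20, lower in shZeb1_C, the median neighbour stood at 0.09 there, and for Rps4l, higher in shZeb1_C, at −0.14. For Rpl23 and Rpl8, higher in shZeb1_D, it stood at 0.03 and 0.01 there. For Rps21 on chromosome 2 the median over all 20 neighbours was −0.08 in shZeb1_C and −0.12 in shZeb1_D, with 12 of 20 lower in each. Counting as neighbours only genes above the array median, a choice made after seeing the data, it was −0.64 in shZeb1_C, with 18 of 20 lower, and −0.69 in shZeb1_D, with 19 of 20 lower.

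Across the family, 9 members had neighbours whose median shifted by more than 0.2 in shZeb1_C, all downward, and 7 of the 9 members lay below 0, beside 63.2% of all 68 members. In shZeb1_D there were 10, of which 8 lay on the same side of 0 as their neighbours. Of all members there, 48.5% lay below 0 and 51.5% above. For shZeb1_D minus shZeb1_C there were also 10, of which 4 lay on the same side, while 38.2% of all members lay below 0 and 60.3% above. With only neighbours above the array median, the later choice, members on the same side were 13 of 16 in shZeb1_C and 15 of 19 in shZeb1_D. For shZeb1_D minus shZeb1_C they were 7 of 11. These members are not independent, since Rps29, Rpl36al and Rpl10l on chromosome 12 share 18 or 19 of their 20 neighbours with each other. Rpl36al and Rpl10l had median neighbours at −0.55 and −0.53 in shZeb1_C. Rpl36al stood at −0.15 there and Rpl10l, dim on these arrays, at 0.10. Without the members on chromosomes 2, 9 and 12, a setting that was not planned, the median fold change of the family was −0.023 in shZeb1_C and 0.023 in shZeb1_D. The part of the neighbourhood in the members' values was not tested.

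**Figure D5:**
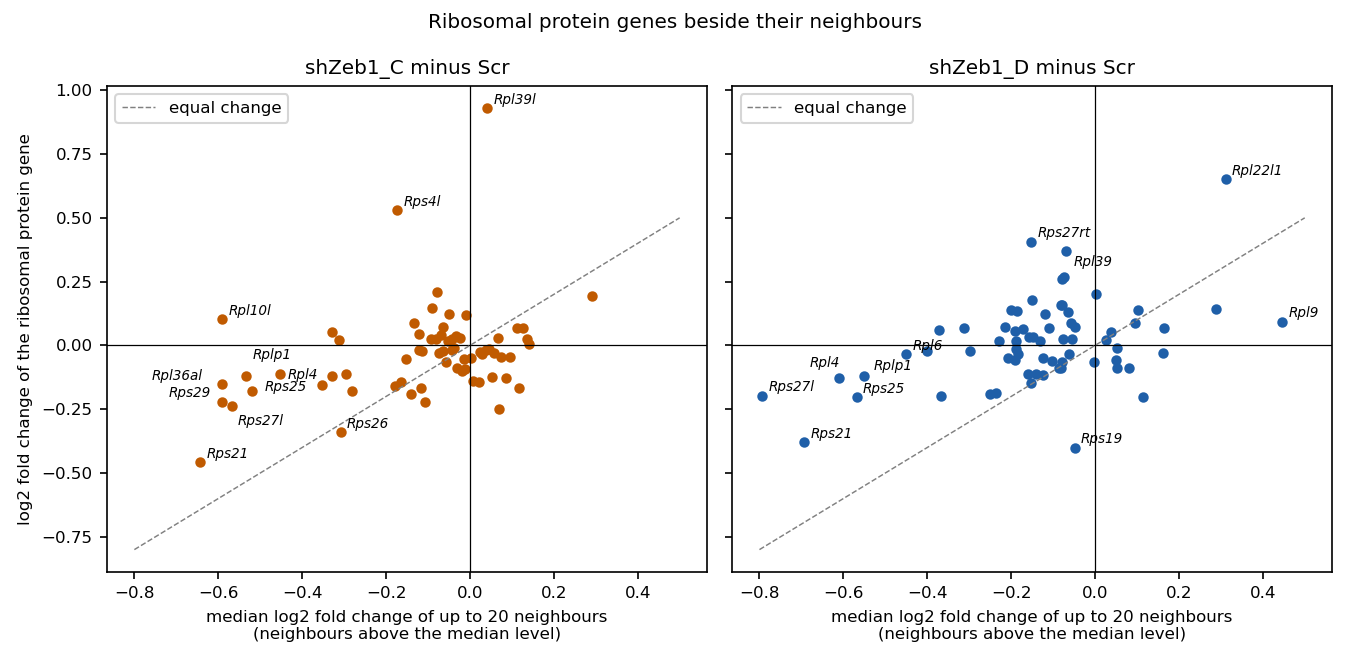
Each point is a ribosomal protein gene, with its log2 fold change against Scr on the vertical axis and the median log2 fold change of up to 20 neighbouring genes above the array median on the horizontal axis, for shZeb1_C (left) and shZeb1_D (right). Rps21, Rps25, Rps27l and Rpl4 lie at the lower left in both panels, nearer to 0 than their neighbours.

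Genes that work with the ribosome were read from lists chosen by function. Among 76 mitochondrial ribosomal proteins, which translate in the organelle, 1 was called, Mrpl4, lower in shZeb1_D (−1.05, limma adjusted p = 0.0475, background 0.843%). Mrpl4 also stood at −0.68 in shZeb1_C, which was not called (limma adjusted p = 0.215). Its difference for shZeb1_D minus shZeb1_C was −0.38, also not called (limma adjusted p = 0.499). The medians of the 76 were −0.09 in shZeb1_C, 0.12 in shZeb1_D and 0.22 for shZeb1_D minus shZeb1_C. In that last comparison the ribosomal protein genes of the cytosol had 0.03 and all probe sets 0.04. None of 18 other translation genes with TOP mRNAs was called, and their medians were −0.09 in both. This list includes the elongation factor Eef1a1 at −0.05 in shZeb1_C and −0.16 in shZeb1_D, the poly(A)-binding protein Pabpc1 at −0.02 and −0.12, and Eef2, which moves the ribosome along the mRNA, at −0.61 and −0.58 (limma adjusted p = 0.915 and 0.668). None of 13 genes of mTOR and initiation control was called. Their medians were −0.03 in shZeb1_C, −0.25 in shZeb1_D and −0.16 for shZeb1_D minus shZeb1_C, with Larp1 at −0.27 in shZeb1_C and −0.49 in shZeb1_D (limma adjusted p = 0.990 and 0.635). None of 7 carriers that escort new ribosomal proteins was called, and their medians were −0.13 in shZeb1_C, −0.29 in shZeb1_D and −0.25 for shZeb1_D minus shZeb1_C. Grwd1, the carrier of Rpl3, stood at −0.34 in shZeb1_C and −1.30 in shZeb1_D (limma adjusted p = 0.962 and 0.211), while Rpl3 itself stood at −0.03 and 0.02.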

How the data were processed

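RNA of 9 samples was hybridised to 1-colour arrays. RMA and the Transcriptome Analysis Console were used, per the submitters' processing notes. The authors deposited RMA signals on a linear scale whose decimal points are missing. The point was put where the log2 signal becomes a multiple of 0.01, within 1e-06 steps, which gave a log2 value for all 199854 signals. The platform annotation names 1 gene for 19572 of 22206 probe sets, several for 0 and none for 2634.

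Each named probe set was fitted with limma 3.58.1 in R 4.3.3 over all 9 arrays, with a mean per group and moderated variances (eBayes). P-values were adjusted by Benjamini-Hochberg over all 19572 in each comparison. Errors beside fold changes are limma standard errors, and precision is limited by the number of arrays. The fit was tested on simulated data. Neighbours and promoters came from RefSeq tables of GRCm38.p6. The sources used here name no build for the deposited table. The first promoter listed for a gene was used, and promoters on chromosome 18 were left out.

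Members and lists were chosen with earlier results of these data known. Named were Zeb1, the 4 members with the highest and lowest fold change in each comparison and with the highest and lowest signal, paralogs with partners, Rps19bp1, Rpl5, Rpl11, Rps6, Rplp0, Rplp1, Rpsa and called context genes. Other members and context genes given by name, such as those with groups that did not overlap, were chosen after their values were seen. Other settings covered normalization, dim probe sets, probe sets in the fit, the variance prior, array weights, the arrays fitted and leaving out each array.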

Additional observations from a re-analysis of the deposited data

How the results depend on the processing

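Under every setting run, 0 of 68 ribosomal protein genes were called in each of the 4 comparisons, while the probe sets called overall ranged from 43 to 875 in shZeb1_C against Scr and from 14 to 1076 in shZeb1_D against Scr. The lowest limma adjusted p of a member under any setting was 0.0876 in shZeb1_C (Rps21, array weights), 0.0906 in shZeb1_D (Rplp0, array split as a covariate, chosen after seeing the data), 0.0836 between the hairpins (Rpl22l1, array weights) and 0.0746 for their mean (Rps21, the same covariate). The member median ranged from −0.10 to 0.033 in shZeb1_C, from −0.07 to 0.069 in shZeb1_D, from −0.083 to 0.041 for the mean and from 0.005 to 0.079 between the hairpins. Of 2402 values of named members, 16 moved by more than their residual SD, all on subtracting array medians. No paired analysis was possible because the groups share no replicate numbers. Averaging probe sets per gene was not run, since each member has 1, and fitting only the arrays compared was not run for the mean of both hairpins, which uses all 9.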
